A study of Mus musculus with 47 samples.

Results

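The livers of untreated wild-type mice of both sexes were compared, 6 males against 6 females, over autosomal genes. These 12 livers are the Pxr+/+ Cont groups among 47 livers in 8 groups, which differ by sex, by the gene of the pregnane X receptor (Pxr, a nuclear receptor that senses foreign compounds and bile acids) and by treatment. All mice were on the C57BL/6J background, the Pxr+/+ animals were littermates of the Pxr-/- animals, the adults were about 6 months old, and all livers were taken at Zeitgeber time 6, the middle of the light phase. The Cont mice drank plain water. The ATB mice were used here for comparison and for the spread in the fits. They drank ampicillin at 1 g/L, neomycin at 1 g/L and vancomycin at 0.5 g/L for 2 weeks, to deplete their gut bacteria. Each liver was hybridized to its own 1-color array, and p-values measure the spread between mice. The limma fits used all 47 arrays, so their standard errors and p-values rest on a spread pooled over all 8 groups. The mice of a group lived in 2 cages, and which mouse lived in which cage is not given in the sources used here. The arrays were washed in 3 batches, each with mice of both sexes, and the batch is a term of every fit.

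The liver is one of the most sexually dimorphic organs of the mouse. The pituitary releases growth hormone in pulses in males and almost continuously in females, and the hormone activates the transcription factor STAT5B in hepatocytes in the same rhythm. BCL6, a repressor more abundant in male liver, and CUX2, a factor nearly restricted to female liver, act on the same genes downstream, together with hepatocyte factors such as HNF4A. The best known targets are enzymes that oxidize or conjugate steroids, bile acids and drugs, and the major urinary proteins, which carry pheromones in male urine.

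Of 20906 autosomal genes with a probe tested, 1475 (7.06% of those tested) were higher in males and 1715 (8.2%) were higher in females after quantile normalization, which gives all arrays the same distribution of signals. A gene counts as called here when its brightest probe had a limma false discovery rate of 0.05 or less, adjusted with the Benjamini-Hochberg method over 32979 probes, and a fold change above 1.2. Differences are given as males less females on the log2 scale, where 1 unit is a 2-fold change, with the standard error of the fit, and the adjusted p-values are limma's. Values of single mice are log2 signals with the wash batch removed. A change above 2-fold was seen for 158 genes higher in males (0.756%) and 214 higher in females (1.02%), above 8-fold for 21 and 26, and above 16-fold for 12 and 17. The values of the 6 males and the 6 females did not overlap for 663 genes higher in males and 942 higher in females among those called, and for 1869 of all genes tested (8.94%). The correlation between arrays over all gene probes was 0.991 to 0.995 within a sex and 0.982 to 0.986 between the sexes. Within each wash batch alone, 372, 372 and 369 of the 372 genes past 2-fold kept their direction. These genes were chosen over the same arrays, so this count was largely fixed in advance and is no independent check.

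The number of small differences depended on the scaling. Before any scaling, the 75th percentile of the probe signals was 216.5 in the lowest male, 258.5 in the median male and 271.5 in the highest, against 281, 304 and 318 in females, so this percentile was higher in every female than in any male. On the log2 scale this percentile was 7.97 ± 0.123 in males and 8.24 ± 0.0606 in females (SD, n = 6 each), a difference of -0.27 (p = 0.00216 in a 2-sided exact permutation test over 924 splits, which can give no smaller value). Without quantile normalization the median difference over all genes moved from 0.01 to -0.20, 429 genes were called higher in males (2.05%) and 5972 higher in females (28.6%). All 429 and all 1715 genes of the smaller sets were called the same way under both scalings, and 4257 genes were called higher in females only without the normalization. Among genes past 2-fold, 155 of 158 and 214 of 214 were called under both, and no gene was called in opposite directions. The share of called genes that were higher in males was 46.2% with quantile normalization and 6.70% without it. Sex and the brightness of the whole array cannot be told apart in these groups.

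**Figure D1:**
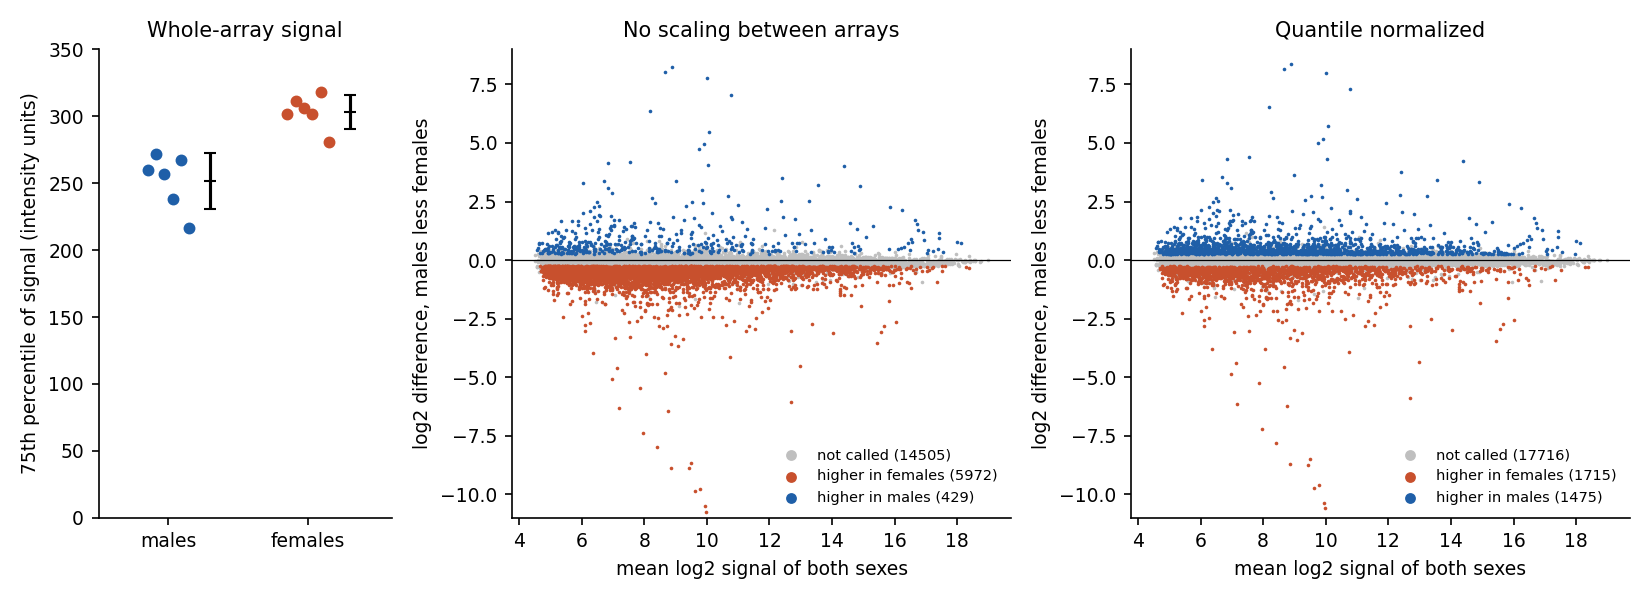
The 75th percentile of the probe signal before scaling, in linear intensity units, 1 point per mouse with mean and SD (left), and the difference between the sexes (males less females, log2) of each autosomal gene against its mean log2 signal, without (middle) and with (right) quantile normalization. Without it 429 genes were called higher in males and 5972 in females, and with it 1475 and 1715.

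Cyp4a12b and Cyp4a12a, fatty acid omega-hydroxylases that also act on arachidonic acid, had the largest male bias. Cyp4a12b (probe at mm9 chr4:115111580-115111639) lay at 12.91 in the lowest male, 13.10 in the median male and 13.26 in the highest, against 4.58, 4.67 and 4.93 in females, a difference of 8.38 ± 0.132 (adjusted p = 2.51e-38), and its probe was well above background in 1 of 6 females. Cyp4a12a (mm9 chr4:115005258-115005317) lay at 12.62, 12.75 and 12.87 in males and was not well above background in any female, so it was at least 280.3-fold higher in males (adjusted p = 6.62e-38). The probe for Cyp4a12a also matches Cyp4a12b, so the 2 genes were not measured apart. Hsd3b5, a 3-ketosteroid reductase of male liver, reached 13.55, 14.04 and 14.23 in males against 5.55, 5.80 and 6.84 in females, a difference of 7.97 ± 0.336 (adjusted p = 1.21e-22). Elovl3, which elongates saturated fatty acids to very long chains, reached 14.24, 14.40 and 14.74 against 5.99, 7.32 and 8.23, a difference of 7.29 ± 0.350 (adjusted p = 1.38e-20). In these 4 genes the lowest male stood far above the highest female, and the females were spread most widely for Elovl3.

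The next male-biased genes belong to several functions. Nat8f5 (difference 6.53 ± 0.282, adjusted p = 2.63e-22) and Nat8 (5.72 ± 0.156, adjusted p = 1.39e-29) are N-acetyltransferases, and Nat8 completes mercapturic acids from glutathione conjugates. Slco1a1, an uptake transporter for bile acids, steroid sulfates and other organic anions, lay at 12.03, 12.59 and 12.90 in males and at 4.94, 7.50 and 9.03 in females, a difference of 5.19 ± 0.507 (adjusted p = 1.27e-10). The females thus varied over more than 4 log2 units among themselves, and none reached a male value. Susd4, a regulator of complement, differed by 4.33 at its brightest probe and by 1.17 at its other probe. Cfd, the serine protease factor D (adipsin) of the alternative complement pathway, lay at 7.38, 9.06 and 10.48 in males and at 4.45, 4.62 and 5.16 in females, a difference of 4.30 ± 0.537 (adjusted p = 6e-08), with 1 of 6 females above background. Cfd is also an adipocyte gene, and the adipocyte list is given with the cell type markers. Gm4956 (4.98), Cyp2d34 (4.38) and Mup-ps12 (4.24) complete the 12 genes with the largest male bias. The signal for Mup-ps12, a pseudogene of the major urinary protein cluster, differed by only 0.40 at its other probe.

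**Figure D2:**
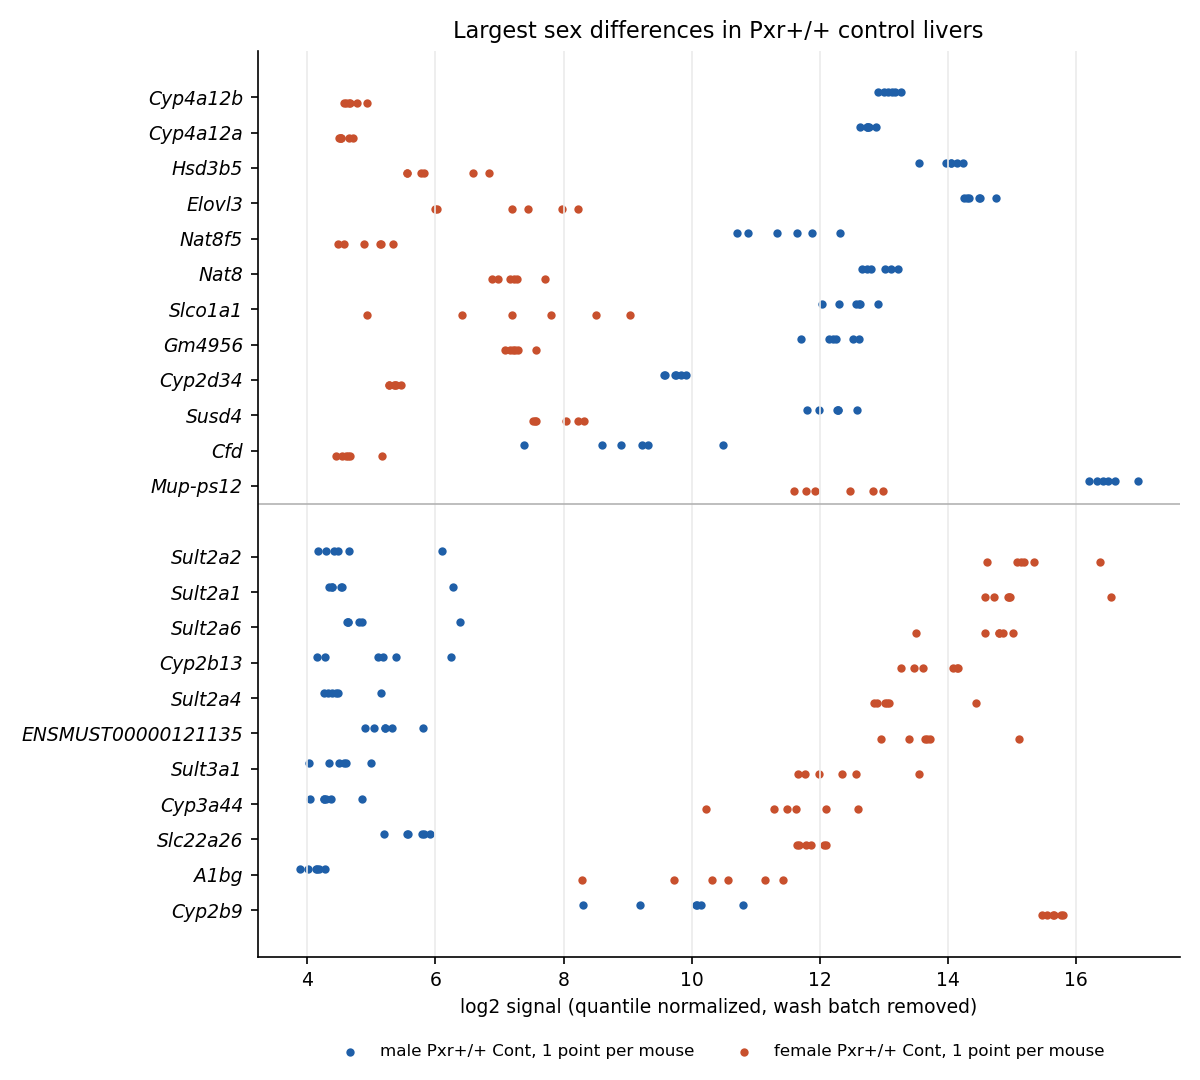
Log2 signal of the 12 genes with the largest male bias and 11 of the 12 with the largest female bias, 1 point per mouse (6 males, 6 females). The genes ranked were those whose sexes did not overlap and that were called alike with and without quantile normalization. For Cyp4a12b the males sit between 12.91 and 13.26 and the females between 4.58 and 4.93, and for Sult2a2 the females sit between 14.60 and 16.37 and the males between 4.17 and 6.10.

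Enzymes that sulfate steroids and bile acids led the female-biased genes. Sult2a2 (mm9 chr7:14364926-14364985) lay at 4.17, 4.45 and 6.10 in males and at 14.60, 15.16 and 16.37 in females, a difference of -10.60 ± 0.280 (adjusted p = 5.47e-30). Sult2a1 lay at 4.34, 4.46 and 6.28 in males and at 14.58, 14.94 and 16.54 in females, a difference of -10.37 ± 0.304 (adjusted p = 1.84e-28). Sult2a6 (-9.60), Sult2a4 (-8.71) and the transcript ENSMUST00000121135 (-8.49) from the same cluster moved alike, although the probe for Sult2a2 also matches Sult2a5 and that for Sult2a1 also matches Sult2a4, so members of the cluster were not measured apart. The lowest female exceeded the highest male by more than 8 log2 units in both Sult2a2 and Sult2a1.

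Cytochrome P450 genes and transporters followed. Cyp2b13 (-8.73), Cyp3a44 (-7.20) and Cyp2b9 (-5.88 ± 0.303) encode P450 enzymes of steroid and drug oxidation. Cyp2b9 was well above background in both sexes, at 8.30, 10.08 and 10.80 in males and 15.46, 15.65 and 15.80 in females, and its probe also matches Cyp2b10. Slc22a26, an organic anion transporter, lay at 5.20, 5.69 and 5.92 in males and at 11.64, 11.83 and 12.10 in females, a difference of -6.21 ± 0.157. Hao2, a peroxisomal hydroxy acid oxidase, lay at 4.88, 5.26 and 5.56 in males and at 9.56, 10.59 and 11.31 in females, a difference of -5.26 ± 0.290 (adjusted p = 1.66e-18). No value of the 6 males reached that of any female in these genes.

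The smallest male values were not evenly spread over the 6 males. For 11 genes more than 64-fold higher in females, male replicate 2 was above background in 9 and the highest male in 9, whereas each other male was above background in 1 to 3 and the highest in 0 or 1. Its excess over the other males had a median of 0.155% of the female level. The array of male replicate 2 shared a slide with that of female replicate 2. The deviations of these 2 arrays from their group means correlated at 0.226 over genes, against -0.147 to 0.0213 for the other pairs with the same number. The male and female arrays of replicates 4, 5 and 6 also shared a slide, and their correlations were -0.048, 0.0213 and -0.106. The part of the slide in this signal was not tested.

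A probe was well above background in every mouse of one sex and in none of the other for 27 genes in females and 9 in males. The folds of these 27 were at least 1.164 to 207.4 (median 1.732) and 25 of them were called higher in females, and all 9 genes in males were called, at least 1.412 to 280.3 (median 2.405). Sult3a1, a sulfotransferase of amines, was at least 207.4-fold higher in females, at 11.66, 12.17 and 13.54 (adjusted p = 2.81e-20). A1bg, a plasma glycoprotein of the immunoglobulin superfamily, was at least 51.25-fold higher in females, at 8.29, 10.44 and 11.43. Sult2a3 (at least 25.63-fold) and Sult2a5 (at least 11.86-fold) followed. In males Cyp4a12a was followed by Gm12718 (at least 9.053-fold), Grm8, a glutamate receptor (at least 3.224-fold), and Meig1, a gene of meiosis in testis (at least 1.944-fold).

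Whole enzyme families leaned to one sex. Among 18 sulfotransferases tested, 12 were higher in females and only Sult2a8 was higher in males, at 15.56, 15.69 and 15.89 against 13.82, 14.54 and 15.25 in females. Among 14 major urinary proteins 12 were higher in males and none in females, with differences of 3.35 for Mup6, 2.24 for Mup5 and 1.36 for Mup20, the pheromone darcin, while Mup19 (0.19) and Mup18 (0.17) were not called. Among 17 carboxylesterases, which cleave ester drugs and lipids, 11 were higher in males (Ces2c 2.08, Ces2b 2.06, Ces3b 1.14) and 2 in females (Ces1b -0.67, Ces1c -0.61). These counts stand beside 7.06% and 8.2% of all genes tested. The sulfotransferases, major urinary proteins and carboxylesterases kept the same leaning without quantile normalization.

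The cytochrome P450 genes were called in both directions, 14 of 83 higher in males and 23 higher in females (9 and 32 without quantile normalization). Cyp2d9, a steroid 16-alpha-hydroxylase, lay at 14.18, 14.28 and 14.37 in males and at 10.32, 10.49 and 10.95 in females (difference 3.74 ± 0.111, adjusted p = 2.78e-28). In the Cyp2c subfamily, Cyp2c67 lay at 14.51, 14.78 and 14.95 in males and at 16.90, 17.36 and 17.58 in females, a difference of -2.55. Its neighbors Cyp2c68 (-2.94 ± 0.141), Cyp2c69 (-2.71 ± 0.130) and Cyp2c40 (-2.52 ± 0.162) differed by similar amounts, although the probes of Cyp2c68, Cyp2c69 and Cyp2c40 each also match other members of this group. Unlike Sult2a2 or Cyp4a12a, these genes were bright in both sexes.

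Families of conjugation and transport held smaller numbers. Glutathione S-transferases had 2 of 20 members higher in males (Gstp1 2.75, whose probe also matches Gstp2, and Gstp2 1.80) and 5 higher in females (Gstm2 -0.85). UDP-glucuronosyltransferases had 6 of 14 higher in males (Ugt2b1 1.11) and 2 in females (Ugt1a10 -2.17, not called without male replicate 1 or 2, adjusted p = 0.0587 and 0.0519), with 3 and 3 without quantile normalization. Acyl-CoA thioesterases, which release free fatty acids from their CoA esters, had 6 of 12 higher in females and none in males, led by Acot3 at 7.37, 9.15 and 9.73 in males against 12.20, 12.81 and 13.02 in females (-3.92 ± 0.378, adjusted p = 8.58e-11). Hydroxysteroid dehydrogenases had 7 of 16 higher in males (Hsd3b6 0.99, Hsd3b1 0.98, Hsd3b3 0.93, beside Hsd3b5) and 2 in females (Hsd17b6 -1.11). Among ABC transporters 3 of 40 were higher in males (Abcg2, an efflux pump of sulfated and other conjugates, 1.30) and 9 in females (Abcd2 -1.91, Abcb1a -1.36). Among SLC22 transporters 2 of 20 were higher in males and 3 in females (Slc22a27 -4.57, Slc22a29 -3.04). Without quantile normalization the counts were 2 and 8 for glutathione S-transferases, 2 and 15 for ABC transporters and 1 and 8 for SLC22 transporters. Serpins of clade A had 7 of 23 higher in males (Serpina4-ps1 3.08, Serpina12 2.27) and 4 in females (Serpina6, the corticosteroid carrier of plasma, -1.33), which became 6 and 7 without quantile normalization. Aldo-keto reductases had 3 of 15 higher in males and 5 in females (Akr1b7 -2.47), with 0 and 6 without it.

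Families that every cell uses showed few differences. Among 78 ribosomal protein genes 2 were higher in males (Rps4l 0.88) and none in females, and among 78 subunits of oxidative phosphorylation 3 and 0. These directions turned without quantile normalization, to 1 and 10 for ribosomal proteins and to 0 and 3 for oxidative phosphorylation. Of 20 hepatocyte markers 1 was called (the fibrinogen chain Fgb, -0.29), and Alb, the gene of albumin, lay between 18.71 and 18.79 in all 12 mice. Alb is near the top of the signal range, where quantile normalization gives all arrays nearly the same values. Its narrow range was thus largely fixed in advance and does not show an equal level in both sexes.

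**Figure D3:**
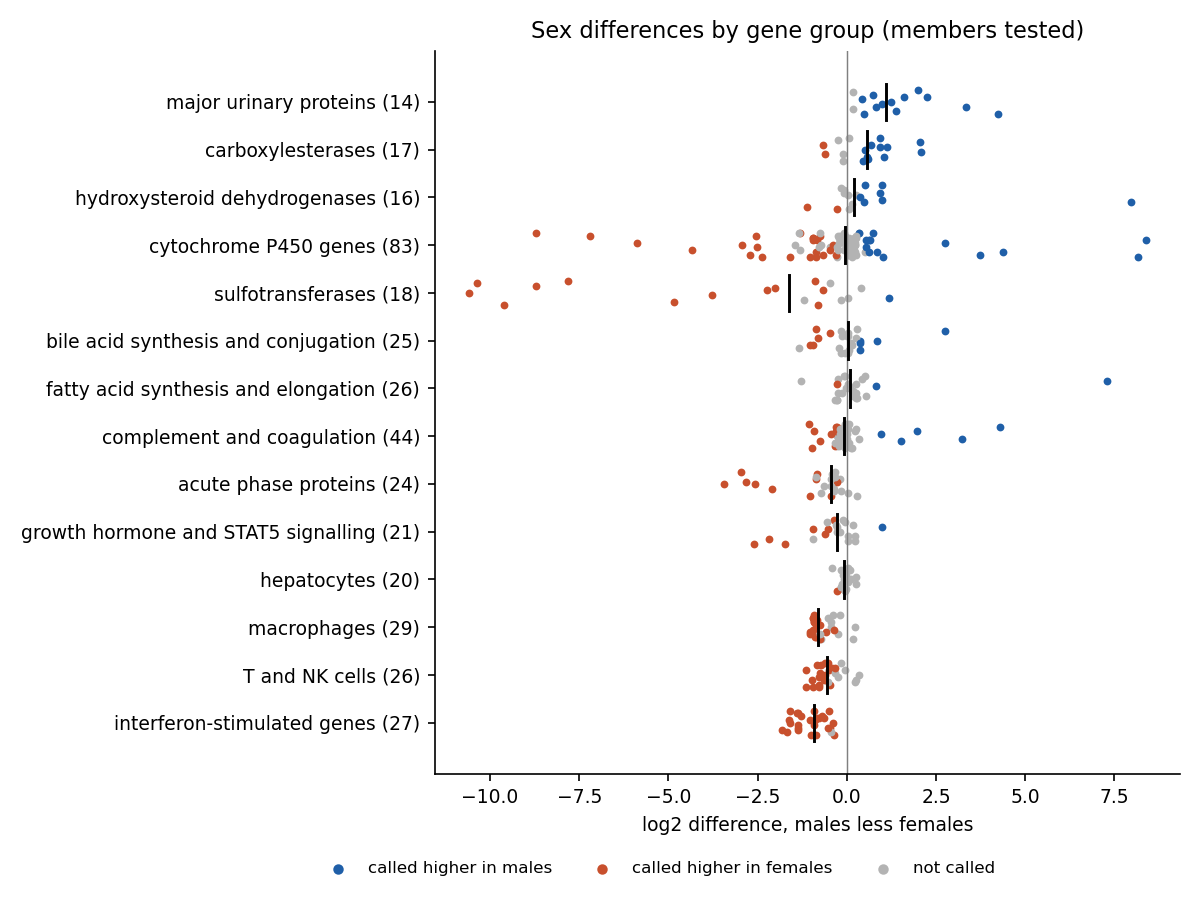
Difference between the sexes (males less females, log2, quantile normalized) of each tested member of 14 gene groups, 1 point per gene (blue, called higher in males; red, called higher in females; gray, not called), with a bar at the median of each group. Most members of the sulfotransferase and interferon-stimulated groups lie below 0, and most major urinary proteins and carboxylesterases lie above it.

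Sex-biased genes of one family often lay side by side. Joining genes past 2-fold that lie within 500 kb of each other gave 12 runs of at least 4 genes, which held 65 of the 372 genes (17.5%), and 10 of the 12 runs had a single direction. The major urinary protein cluster (mm9 chr4:60671856-61713730) held 11 genes past 2-fold of 15 tested, all higher in males. The Sult2a cluster (mm9 chr7:14247879-15050573) held 8 genes higher in females and Sult2a8, higher in males, of 10 tested. The run around the serpin cluster on chromosome 12 (mm9 chr12:104680394-105491792) was also mixed, with 4 higher in males and 3 in females of 25 tested. The 3 were Serpina6 and its neighbors Ifi27l2a and Ifi27l2b, which are not serpins. Clusters of a single direction included Cyp2c (4 of 4 tested higher in females, mm9 chr19:39683429-39917363), Cyp2b with Cyp2a4 (4 of 5 higher in females, mm9 chr7:26711522-27099939), Slc22a (4 higher in females, mm9 chr19:7856477-8234895) and Ces2 to Ces4 (4 of 9 higher in males). The ends of a run are its own genes past 2-fold, so these shares were partly fixed in advance. Near the Cyp2c run, Cyp2c39 was called higher in females and Cyp2c53-ps higher in males (0.54), while Cyp2c65 and Cyp2c66 were not called. How many such runs random genes would give was not tested. A run of zinc finger genes (mm9 chr4:146887459-147181283) held Zfp979 (2.47), Zfp982 (1.71), Zfp985 (1.38) and Zfp984 (1.01), all higher in males. Shared probe sequence within such families limits how far neighbors were measured apart, and for 25 of the 372 genes the probe matched a further gene.

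Growth hormone signaling itself was measured through the receptor, its transcription factor and its feedback inhibitors. Of 21 genes of this pathway, 1 was higher in males and 7 were higher in females, with 0 and 12 without quantile normalization. Ghr, the growth hormone receptor, differed by 0.22 (adjusted p = 0.0275, below the 1.2-fold limit) and Stat5b by -0.29 (adjusted p = 0.0793), and neither was called, although Stat5b passed without male replicate 1 (-0.36, adjusted p = 0.0287). The STAT5-induced inhibitors Socs2 and Cish were higher in females. Socs2 lay at 7.34, 8.17 and 11.44 in males and at 10.58, 10.93 and 11.11 in females (-2.17 ± 0.500, adjusted p = 0.0016), and Cish at 7.38, 8.02 and 11.40 against 9.13, 10.10 and 11.53 (-1.72 ± 0.520, adjusted p = 0.0176). The sexes overlapped in both genes through male replicate 1, which was the highest male in each. Without this mouse the males reached only 9.59 for Socs2 and 8.26 for Cish, and the differences were -2.73 and -2.33.

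Prlr, the prolactin receptor, lay at 9.57, 10.07 and 10.46 in males and at 12.24, 12.62 and 13.08 in females, without overlap (-2.59 ± 0.175, adjusted p = 1.67e-15), and its 3 probes were all called higher in females. Igfals, which stabilizes circulating IGF1, differed by -0.94, Lifr, the receptor of leukemia inhibitory factor, by -0.60 (not called without male replicate 1, adjusted p = 0.063), and Igf1, the growth factor made by liver under growth hormone, by -0.37 ± 0.099 (adjusted p = 0.00746). Egfr, the receptor of epidermal growth factor, was the one member higher in males (0.98, adjusted p = 0.0386). It was not called without quantile normalization or without male replicate 2 (adjusted p = 0.0548).

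**Figure D4:**
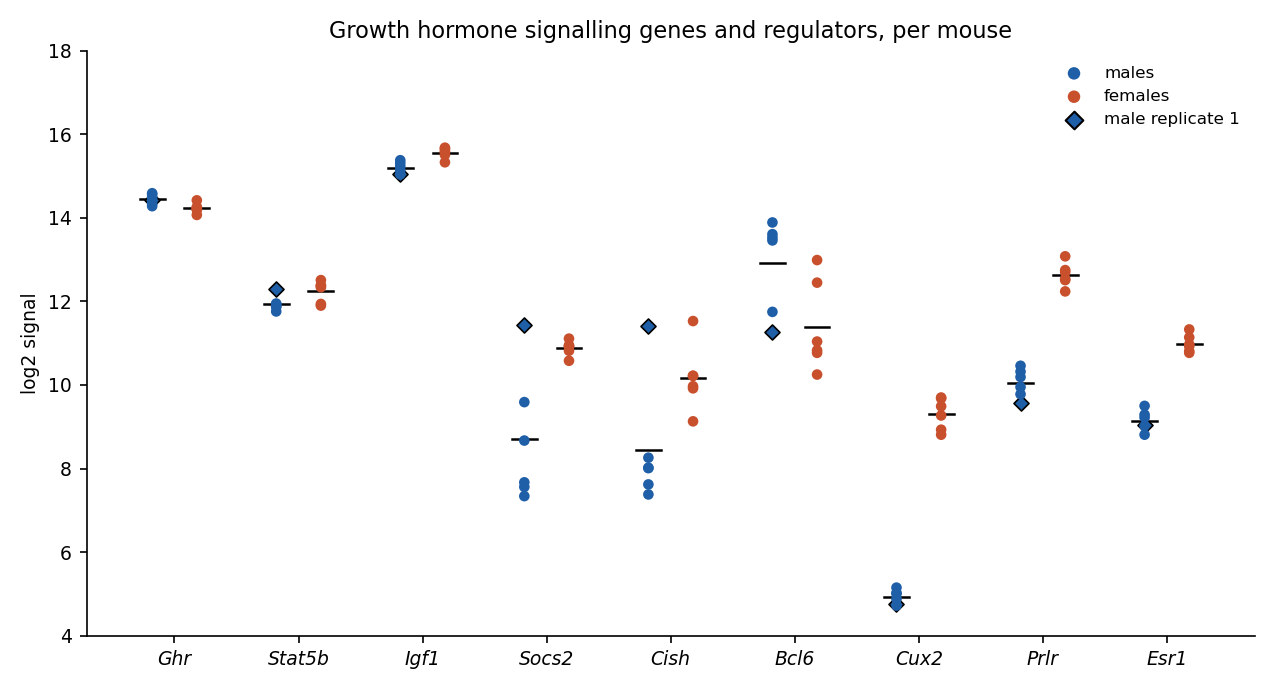
Log2 signal of 9 genes of growth hormone signaling and its transcription factors in each mouse, 6 males and 6 females per gene, with male replicate 1 drawn as a diamond and black bars at the means. Male replicate 1 lies above every female for Socs2 (11.44) and among the females for Cish (11.40), and it is the lowest male for Bcl6 (11.26).

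Among 35 transcription factors of liver, 2 were higher in males and 7 in females, with 0 and 14 without quantile normalization. Cux2, the female-biased homeobox factor, lay at 4.72, 4.95 and 5.15 in males, where 3 of 6 were above background, and at 8.81, 9.38 and 9.70 in females, a difference of -4.39 ± 0.279 (adjusted p = 2.39e-16) with 3 probes between -4.88 and -4.29. Bcl6 lay at 11.26, 13.50 and 13.89 in males and at 10.25, 10.94 and 12.99 in females (1.53 ± 0.528, adjusted p = 0.0401). The 2 lowest males for Bcl6 were replicate 1 (11.26) and replicate 6 (11.75), and the sexes overlapped. Bcl6 was not called without quantile normalization, nor without male replicate 2 (1.42, adjusted p = 0.0824), and was 1.87 without male replicate 1 (adjusted p = 0.0128). Esr1, the estrogen receptor alpha, lay at 8.81, 9.14 and 9.50 in males and at 10.77, 10.95 and 11.33 in females (-1.84 ± 0.139, adjusted p = 6.93e-14), and all 7 of its probes were called higher in females. Tox, a factor of T cell development, differed by -1.24, Ahr, the dioxin receptor, by -0.49, and Nr1i3, the drug-sensing receptor CAR, by -0.31. Ahr was not called without male replicate 1 (adjusted p = 0.118), nor Nr1i3 without male replicate 1 (adjusted p = 0.104) or 2 (adjusted p = 0.0503). Hnf4a (-0.13, adjusted p = 0.511) and Rxra (0.00) were not called. Nr1i2, the gene of PXR, lay at 11.24, 11.79 and 12.11 in males and at 11.33, 11.87 and 12.23 in females (-0.11, adjusted p = 0.723), so the sexes overlapped.

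Promoters of the genes past 2-fold were searched for short motifs of factors of this pathway, from 250 bases before to 50 after the start site in RefSeq (GRCm38.p6), on both strands and for the first promoter listed for a gene. A promoter was listed for 95 of the 158 male-biased genes, 130 of the 214 female-biased genes and 12254 of the 20906 genes tested. The STAT5 motif TTCNNNGAA stood in 14.6% of female-biased promoters (19 of 130, exact 95% interval 9.03 to 21.9) and in 9.11% over all genes called higher in females (104 of 1141), in 7.37% of male-biased promoters (7 of 95, 3.01 to 14.6) and in 7.35% of all. The same letters are bound by other STAT proteins, and the 19 genes include Cish and Hamp2 as well as the interferon-inducible genes Gbp5, Gbp7, Igtp, Irgm2, Oas1a and Tgtp2. The 7 male-biased genes with it include Bcl6 and C8a. The forkhead (FOXA) motif TGTTTAC stood in 6.15% of female-biased promoters (3.07% over all genes called higher in females), 2.11% of male-biased and 2.71% of all promoters, and the CUX2 and HNF6 core ATCGAT in 0.769% of female-biased, 0 of 95 male-biased (at most 3.81%) and 0.841% of all promoters. No test was made on these shares, and a match is a description of the letters, not of binding.

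The STAT5 motif is shown for 3 of the genes with the largest female bias, Sult3a1, A1bg and Slc22a26, whose sexes did not overlap. These 3 were chosen because their promoters hold it. Among the other genes with the largest female bias, Sult2a6, Cyp2b13, Sult2a4, Cyp3a44 and Cyp2b9 had a listed promoter without it. In the 3 promoters shown, capitals mark the motif, which starts 109, 84 and 141 bases before the start site. Each line runs 5′ to 3′ on the gene's strand and covers chr10:33857472-33857771 (+ strand) for Sult3a1, chr15:60921221-60921520 (- strand) for A1bg and chr19:7802618-7802917 (- strand) for Slc22a26, all in GRCm38.p6.
Sult3a1: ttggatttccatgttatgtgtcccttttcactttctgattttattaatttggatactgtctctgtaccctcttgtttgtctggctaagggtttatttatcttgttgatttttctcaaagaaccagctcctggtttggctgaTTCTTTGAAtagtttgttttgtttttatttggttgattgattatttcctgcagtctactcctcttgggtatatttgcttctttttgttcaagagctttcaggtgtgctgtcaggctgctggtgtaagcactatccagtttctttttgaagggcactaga
A1bg: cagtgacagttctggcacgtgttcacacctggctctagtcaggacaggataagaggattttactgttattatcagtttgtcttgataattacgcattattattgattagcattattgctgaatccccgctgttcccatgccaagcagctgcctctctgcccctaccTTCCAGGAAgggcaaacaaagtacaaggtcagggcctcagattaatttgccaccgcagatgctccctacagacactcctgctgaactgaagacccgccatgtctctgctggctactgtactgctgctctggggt
Slc22a26: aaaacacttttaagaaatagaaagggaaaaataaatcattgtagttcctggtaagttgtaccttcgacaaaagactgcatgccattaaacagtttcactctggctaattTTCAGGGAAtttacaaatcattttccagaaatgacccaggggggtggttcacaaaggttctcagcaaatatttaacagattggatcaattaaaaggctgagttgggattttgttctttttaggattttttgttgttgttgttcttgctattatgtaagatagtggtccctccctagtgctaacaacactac

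The HNF4A motif CAAAGTCCA stood in 5.38% of female-biased promoters (7 of 130, 2.19 to 10.8), in 1.05% of male-biased promoters (1 of 95) and in 0.547% of all. Of the 7, 4 were the neighboring paralogs Cyp2c40, Cyp2c67, Cyp2c68 and Cyp2c69 and the others were Cyp3a16, Cela2a and Pilra. Capitals mark the motif in these 4 promoters, at 45, 125, 77 and 75 bases before the start site. The regions are chr19:39812765-39813064 for Cyp2c40, chr19:39648993-39649292 for Cyp2c67, chr19:39741052-39741351 for Cyp2c68 and chr19:39886720-39887019 for Cyp2c69, all on the - strand of GRCm38.p6.
Cyp2c40: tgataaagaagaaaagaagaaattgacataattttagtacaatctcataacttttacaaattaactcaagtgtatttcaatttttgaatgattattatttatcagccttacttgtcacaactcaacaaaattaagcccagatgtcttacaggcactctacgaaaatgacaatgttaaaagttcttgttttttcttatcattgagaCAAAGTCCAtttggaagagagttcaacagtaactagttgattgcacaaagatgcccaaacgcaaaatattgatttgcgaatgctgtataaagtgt
Cyp2c67: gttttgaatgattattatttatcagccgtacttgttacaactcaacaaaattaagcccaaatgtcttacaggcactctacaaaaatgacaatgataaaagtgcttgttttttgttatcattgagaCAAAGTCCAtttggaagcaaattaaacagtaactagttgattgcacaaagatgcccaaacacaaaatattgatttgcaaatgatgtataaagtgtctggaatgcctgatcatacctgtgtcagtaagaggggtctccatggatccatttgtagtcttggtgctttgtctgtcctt
Cyp2c68: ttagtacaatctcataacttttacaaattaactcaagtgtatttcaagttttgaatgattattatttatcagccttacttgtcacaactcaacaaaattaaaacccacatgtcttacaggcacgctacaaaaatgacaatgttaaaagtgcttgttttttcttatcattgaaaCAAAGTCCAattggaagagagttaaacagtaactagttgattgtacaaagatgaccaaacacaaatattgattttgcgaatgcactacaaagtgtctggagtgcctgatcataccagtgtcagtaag
Cyp2c69: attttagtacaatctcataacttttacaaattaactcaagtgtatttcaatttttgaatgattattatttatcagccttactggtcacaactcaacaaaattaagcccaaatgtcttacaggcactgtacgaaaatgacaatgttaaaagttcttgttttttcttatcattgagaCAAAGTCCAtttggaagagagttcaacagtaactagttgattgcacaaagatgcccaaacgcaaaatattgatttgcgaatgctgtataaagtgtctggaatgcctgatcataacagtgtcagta
Lined up at the motif without gaps over 190 bases, Cyp2c40 and Cyp2c69 were identical at 98.4% of positions, Cyp2c67 at 92.6% and 92.1% with these, and Cyp2c68 at 77.9% to 80% with the other 3. These 4 genes therefore count as one family and not as 4 separate occurrences of the motif.

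Of 26 genes of fatty acid synthesis and elongation, Elovl3 and Gpam, which starts triglyceride synthesis (0.81, adjusted p = 0.0229), were higher in males and the desaturase Fads1 (-0.29, adjusted p = 0.054 without male replicate 1) was higher in females. Without quantile normalization Gpam was not called, and the counts of this list were 1 and 3. Fasn, the fatty acid synthase, ranged over more than 2 log2 units among the males alone, from 15.27 to 17.88, and its difference of -0.09 was not called (adjusted p = 0.887). The elongases Elovl2 (0.26, adjusted p = 0.162) and Elovl5 (0.16, adjusted p = 0.603) and the desaturase Scd1 (0.19) were not called either. Of 39 genes of PPARA targets and fatty acid oxidation 5 were higher in males (the lipid droplet gene Cidec 1.67) and 5 in females (Ehhadh, a peroxisomal oxidation enzyme, -0.55), with 2 and 8 without quantile normalization.

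Of 25 bile acid genes 5 were higher in males and 5 in females, with 2 and 8 without quantile normalization. Cyp7b1, the oxysterol 7-alpha-hydroxylase of the alternative pathway, lay at 13.20, 13.79 and 14.10 in males and at 10.61, 10.98 and 11.39 in females (2.76 ± 0.171, adjusted p = 9.89e-17). Cyp8b1, which makes cholic acid, differed by 0.84 (adjusted p = 0.0487) and was not called without male replicate 1 (adjusted p = 0.0927) or 2 (adjusted p = 0.0802). Slc51b, a subunit of the basolateral bile acid exporter, differed by -1.04, Cyp2c70, which makes muricholic acids, by -0.94, and Cyp39a1, an oxysterol hydroxylase, by -0.86. Cyp7a1, the rate-limiting enzyme of bile acid synthesis, lay at 8.30, 9.28 and 9.91 in males and at 9.28, 10.37 and 12.69 in females, with overlapping sexes (-1.33, adjusted p = 0.0691), and was called higher in females only without quantile normalization. Of 21 sterol genes 2 were higher in females and none in males (5 and none without quantile normalization), and of 18 clock genes only the nuclear receptor Rora (0.42) was called, higher in males, and none was called without quantile normalization.

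Secreted proteins of innate defense were called in both directions. Of the components of the membrane attack complex, C6, C8a, C8b and C9 were higher in males, while C7 (0.11, adjusted p = 0.51), C8g (adjusted p = 0.61) and Hc, the gene of C5 (adjusted p = 0.993), were not called. C6 lay at 11.09, 11.53 and 11.78 against 7.96, 8.20 and 8.52 in females (3.21), C8a at 13.61, 13.84 and 13.97 against 10.98, 11.85 and 12.68 (1.98 ± 0.294, adjusted p = 2.27e-06), C8b differed by 1.51 and C9 by 0.96 ± 0.174 (adjusted p = 7.36e-05). With Cfd, these 4 made up the 5 of 44 complement and coagulation genes higher in males. Another 11 were higher in females, led by Mbl2, the mannose-binding lectin that starts the lectin pathway, at 15.82, 16 and 16.13 against 16.83, 17.05 and 17.18 (-1.05 ± 0.096, adjusted p = 2.1e-11), and by the macrophage products C1qa (-0.97), C1qb (-0.91) and C1qc (-0.74). C3 differed by -0.31 and Cfi, its inactivating protease, by -0.33. Without quantile normalization the counts were 5 and 20.

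Among 24 acute phase genes 10 were higher in females and none in males, with 17 and none without quantile normalization. Hamp2, one of the hepcidins that restrict iron export, lay at 12.78, 13.70 and 14.71 in males and at 15.45, 17.52 and 17.79 in females (-3.45), and Hamp differed by -0.85. The metallothioneins Mt1 (-2.97 ± 0.575, adjusted p = 0.000192) and Mt2 (-2.82) bind zinc and copper, and Mt1 varied widely in both sexes, at 11.42, 12.19 and 13.94 in males against 13.96, 15.49 and 17.35 in females. The plasma glycoprotein Orm3 differed by -2.57. Lcn2, which captures bacterial siderophores, differed by -2.09 (adjusted p = 0.0355) and was not called without male replicate 1 (adjusted p = 0.0681) or 2 (adjusted p = 0.0604).

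Interferon-stimulated genes were higher in females almost without exception. Of 27 tested, 26 were higher in females and none in males, 13 of them past 2-fold, with a median difference of -0.93 against 0.01 over all genes. Gbp3, a guanylate-binding protein, lay at 7.74, 7.86 and 8.17 in males and at 9.32, 9.77 and 10.36 in females (-1.83). Ifit1, which binds viral RNA, lay at 6.56, 6.88 and 7.19 against 8.12, 8.41 and 9.13 (-1.68 ± 0.204, adjusted p = 3.01e-08), and Isg15, a ubiquitin-like modifier, at 10.98, 11.27 and 11.55 against 12.14, 12.56 and 13.32 (-1.36 ± 0.182, adjusted p = 2.59e-07). The males and females did not overlap in these 3 genes. Gbp2 (-1.61), Ifi44 (-1.60) and Usp18, which limits interferon signaling (-1.59), differed by similar amounts, and Oasl1 (-0.44, adjusted p = 0.19) was the member not called. The count was 26 without male replicate 1 and 25 without male replicate 2.

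Markers of macrophages and of T and NK cells were also called higher in females. In bulk liver RNA, more cells of a type and more RNA per cell cannot be told apart. Of 29 macrophage markers tested, 19 were higher in females and none in males (median -0.82), including the lysosomal protease Ctss (-1.04), the Fc receptor Fcgr1 (-1.02), the lysozyme Lyz2 at 12.45, 12.79 and 13.01 in males against 13.27, 13.63 and 14.36 in females (-0.96 ± 0.306, adjusted p = 0.0253), and the Kupffer cell lectin Clec4f at 11.74, 12.07 and 12.08 against 12.51, 12.73 and 12.99 (-0.76 ± 0.164, adjusted p = 0.000808). Csf1r, the receptor of a macrophage growth factor, differed by -0.92 ± 0.246 (adjusted p = 0.00714) at its brightest probe and in the opposite direction, by 0.57, at its other probe. Adgre1 (-0.73), the gene of F4/80, was not called. Of 26 T and NK cell markers 18 were higher in females and none in males (median -0.57), led by the granzyme Gzma (-1.15 ± 0.214, adjusted p = 0.00011) and the chemokine Ccl5 (-1.14), while the brightest member Cd4 (0.34) and the T cell receptor subunit Cd3e (0.22) were not called. Of 9 genes of MHC class II presentation 6 were higher in females (H2-Ab1 -0.77, Cd74 -0.72), and 9 were without quantile normalization. Of 10 neutrophil markers 3 were called higher in females and none in males. None of 10 B cell markers was called by limma, and 3 were called higher in females without quantile normalization.

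The summed linear signal of each marker list gives the same comparison by mouse. Macrophage markers summed to 41320, 49340 and 56470 in males and to 69540, 80940 and 125300 in females, without overlap, a sum led by Cd5l, Lyz2, Csf1r and Clec4f. T and NK cell markers summed to 15910 to 19820 in males and 13810 to 21020 in females and thus overlapped, as did markers of neutrophils (31580 to 38440 against 31510 to 37010) and of sinusoidal endothelium (32540 to 41460 against 38870 to 53990). Stellate cell and fibroblast markers did not overlap (44830 to 63240 against 70050 to 77920), and 4 of 20 were called higher in females (Thy1 -1.08), against 14 without quantile normalization. Hepatocyte markers summed to 3547000 to 3694000 in males and 3707000 to 3960000 in females, and so did not overlap either. Adipocyte markers were higher in males, 1957 to 3600 against 1283 to 1732, with Cfd, Cidea (1.80) and Plin4 (1.38) called of 7. Spi1 of the macrophage list, Ncr1 of the NK cells and Cd79a and Blk of the B cells were not above background in any of the 12 livers. The part of these cell types in the differences of the interferon-stimulated, complement and adipocyte genes was not tested.

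General lists of sex-biased liver genes, written from textbook knowledge with earlier results of these data in view, were counted in the same way and are no independent evidence. Of 38 male-biased genes 32 were higher in males and none in females, and of 48 female-biased genes 37 were higher in females and 1, Cib3, was higher in males. Cib3, a calcium-binding protein, lay at 9.22, 10.81 and 12.69 in males and at 6.20, 6.84 and 9.03 in females (3.63 ± 0.664, adjusted p = 8.43e-05), without overlap. Members of the female list that were not called include Cyp7a1, Cyp4a14 (-1.30, adjusted p = 0.0813), a fatty acid omega-hydroxylase, and Sult1e1, the estrogen sulfotransferase (-1.20, adjusted p = 0.0568). Without quantile normalization the male list held 30 genes higher in males and 2 higher in females.

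The other 3 pairs of groups, each with its own males and females, gave the same direction for most genes past 2-fold. Of the 158 male-biased genes 146 were called higher in males also in Pxr-/- Cont mice, 150 in Pxr+/+ ATB mice, 150 in Pxr-/- ATB mice and 144 in all 3. Of the 214 female-biased genes these counts were 190, 201, 168 and 163, and none was called in the opposite direction. Over all 20906 genes tested, 1277, 1330 and 1406 were called higher in males in these 3 pairs, and 1291, 1683 and 1323 higher in females. Interferon-stimulated genes were called higher in females for 17, 19 and 8 of the 27 members in these pairs, with medians of -0.45, -0.52 and -0.21 against -0.93 in the Pxr+/+ Cont livers. Macrophage markers were called higher in females for 4, 12 and 0 of 29. No member of either list was called in the 2 tests of a difference between pairs that were run, in which the sex difference of Pxr+/+ Cont livers was set against that of Pxr-/- Cont and of Pxr+/+ ATB livers.

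Few autosomal genes had a sex difference in Pxr+/+ Cont livers that differed from another pair. Against Pxr-/- Cont mice limma called 6 (0.0287%, with 963 at an unadjusted p below 0.05), and against Pxr+/+ ATB mice it called 7 (0.0335%, with 1052). Leaving out each Pxr+/+ Cont mouse in turn gave 3 to 7 and 6 to 8. Slco1a4, an organic anion uptake transporter and PXR target, differed by -1.16 in Pxr+/+ Cont and by -3.65 in Pxr-/- Cont livers, since males averaged 10.21 and 7.34 and females 11.36 and 10.99. Cyp2b9 and Cyp2b10, which drugs induce through CAR and PXR, differed by -5.88 and -4.34 in Cont and by -8.40 and -7.38 in ATB mice: the males averaged 9.76 in Cont and 7.21 in ATB for Cyp2b9, and 10.80 and 7.61 for Cyp2b10, while the females stayed within 15.61 to 15.64 and 14.99 to 15.14. Cyp3a11, the main drug-oxidizing P450 induced by PXR, lay at 14.07, 14.22 and 14.55 in Pxr+/+ Cont males and at 14.54, 15.35 and 15.61 in females, nearly without overlap (-0.94 ± 0.152, adjusted p = 1.22e-05). In ATB mice the difference was -3.13, with males at 12.10 and females at 15.23 on average, and in the Pxr-/- pairs it was -0.86 and -1.13. The probe for Cyp3a11 also matches Cyp3a41a, Cyp3a41b and Cyp3a44, of which Cyp3a41a (-0.87, adjusted p = 2.92e-07) and Cyp3a44 were also called higher in females, so its signal may include theirs. Cyp2c55, a colon and liver P450 that PXR induces, was higher in Cont males (0.72, adjusted p = 0.034) and not called without quantile normalization or without male replicate 2 (adjusted p = 0.054).

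**Figure D5:**
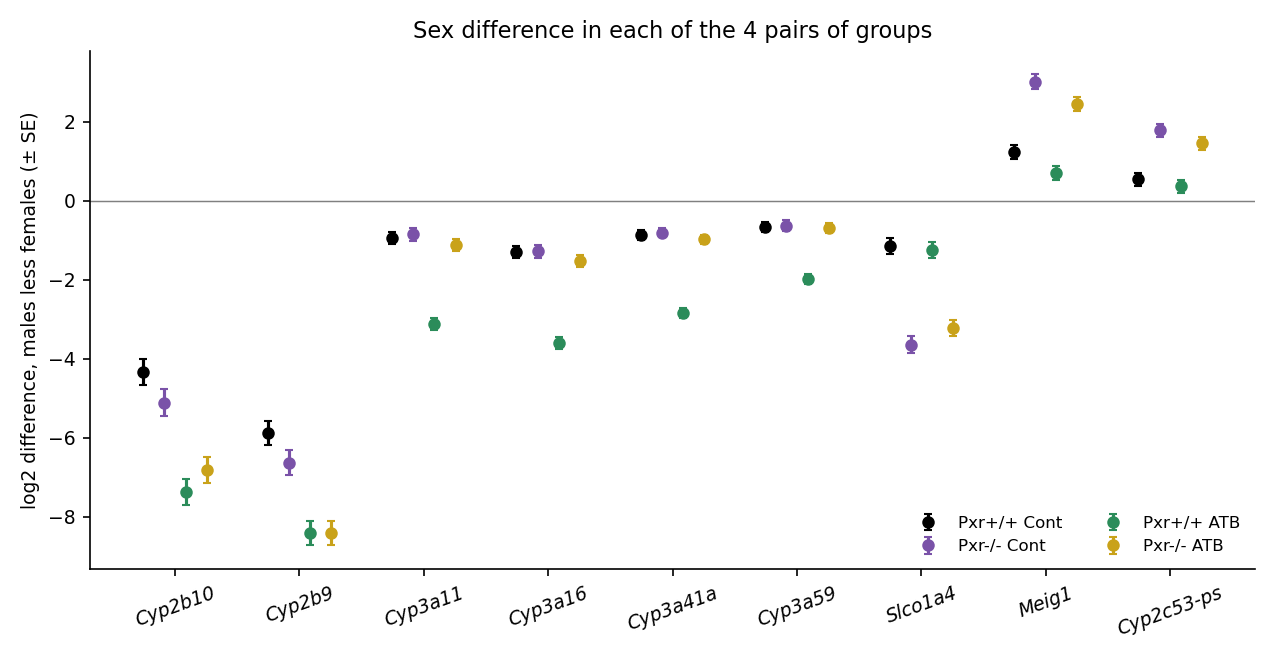
Sex difference (males less females, log2, with standard error) in the 4 pairs of groups for 9 of the genes whose difference in Pxr+/+ Cont livers differed from that in Pxr-/- Cont or Pxr+/+ ATB livers. Cyp3a11 goes from -0.94 in Pxr+/+ Cont to -3.13 in Pxr+/+ ATB livers and Slco1a4 from -1.16 to -3.65 in Pxr-/- Cont livers, and Meig1 was above background in none of the Pxr+/+ Cont females, so its value there is not a measured size.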

How the data were processed

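Liver RNA of 47 mice in 8 groups was hybridized to 1-color Agilent mouse arrays, 1 per mouse. The authors read the arrays with Agilent Feature Extraction 10.10.1.1, and the deposited scanner files give a linear median intensity per spot, with no scaling between arrays. The deposited table holds log2 values of 33383 probes and was used as an alternative. The authors filtered these values, corrected them for wash batch and normalized them with CrossNorm (centring not stated). Column medians ran from 7.363 to 7.531 and were the same for all arrays of a group, 7.382 in Pxr+/+ Cont males and 7.531 in Pxr+/+ Cont females. Per the file headers, probe coordinates are of build mm9.

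The log2 median signal of 56605 gene probes was taken, repeat spots were averaged, 422 non-uniform spots were dropped, and all 47 arrays were quantile normalized. A probe was tested if detected above background on 5 or more arrays of any group, which left 32979 probes of 21877 genes, 20906 of them on chromosomes 1 to 19. Between 31187 and 34477 probes were above background on each of the 12 arrays, and the number of arrays limits the precision. A gene is represented by its brightest probe. The limma package (3.58.1, R 4.3.3, data read with the package data.table, 1.17.8) fitted a model of group and wash batch, and permutation tests and figures used scipy 1.17.1 and matplotlib 3.10.9. Thresholds were those of the study's methods, FDR at most 0.05 and fold above 1.2. Symbols of 1535 probes were updated through their accessions. A fold against a sex in which no mouse was above background is a bound, the bright sex's mean over the lowest signal that was above background on the same arrays.

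Genes named include the 12 with the largest difference on each side without overlap that were called alike with and without quantile normalization. They also include up to 4 called members of each list and side, the brightest members not called, and genes the study names. Members and lists were chosen with earlier results of these data known. The models were tested on simulated data. Alternatives were no quantile normalization, a CrossNorm-like scaling over 300 random draws, the processed signal less its 75th percentile, the deposited values, a stricter probe filter, a block for replicate number and leaving out each mouse. A few genes are not reported here. Columns of the authors' own comparisons were not used.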

Additional observations from a re-analysis of the deposited data

Results flagged for a closer look

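Of 322 groups of 6 values looked at, 23 held a mouse whose distance from the other 5 was large against the range of the group, and chance gives this in about 5% of groups. Male replicate 2 accounted for 4 of these, as the highest male in Sult2a1 (6.28), Sult2a2 (6.10), Sult2a4 (5.15) and Sult2a6 (6.38), all genes at or near background in the other males. Male replicate 1 accounted for 4, with Cish at 11.40 (the highest male), Stat5b at 12.30, Ces1b at 10.87 and Fcgr1 at 6.42. Female replicate 5 stood apart in Sult2a1 (16.54), Sult2a4 (14.43) and ENSMUST00000121135 (15.10), which lie in one cluster and share probe sequence. Female replicate 4 stood apart in Hamp2 (15.45, the lowest female), Cyp2c40 (15.19) and Scd1 (15.15). The other values were Sult2a6 (13.50) and C1qc (12.34) in female replicate 3, Fads1 (11.90) and Serpina12 (6.72) in male replicate 3, Mup20 (17.65) and Alb (18.71) in male replicate 6, Cfd (5.16) in female replicate 1, Zfp979 (5.45) in female replicate 2 and Ugt2b1 (10.62) in female replicate 6.

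The sex difference of 13 genes in Pxr+/+ Cont livers differed from that in another pair of groups by limma's test of the difference. Set against Pxr-/- Cont livers, Slco1a4 moved by 2.49 on the log2 scale (sex difference in Pxr+/+ Cont less that in the other pair), Tmeff2 by -1.81, Meig1 by -1.79, Cyp2c53-ps by -1.24, Cyp2c65 by -0.69 and Cyp2c66 by -0.65. In Pxr+/+ Cont livers Cyp2c65 and Cyp2c66 were above background in no mouse, Tmeff2 in 2 of 6 males and 0 females and Meig1 in 0 females, so the sizes of these 4 moves rest on signals at background. Set against Pxr+/+ ATB livers, Cyp2b10 moved by 3.04, Cyp2b9 by 2.52, Cyp3a16 by 2.30, Cyp3a11 by 2.19, Cyp3a41a by 1.97, Cyp3a59 by 1.31 and Zdhhc2 by 0.75. The probes of Cyp2b9, Cyp2c66, Cyp3a11 and Cyp3a41a also match neighbors in their families, so these values are not independent.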

How the results depend on the processing

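Without quantile normalization 429 genes were called higher in males and 5972 higher in females, 433 of the latter past 2-fold, and a CrossNorm-like scaling gave 442, 6220 and 433. The deposited values, whose array medians are lower in the Pxr+/+ Cont males than in the females, gave 740 and 3351. The share of called genes that were higher in males was 6.70%, 6.63% and 18.1% in these, and 53.9% with the processed signal less its 75th percentile, which gave 291 genes higher in males and 411 higher in females past 2-fold and 3 genes in the test against Pxr-/- Cont mice. With only probes above background on all arrays of all groups kept, this test called 1 gene. This filter also left out genes at background in one sex, and 125 of the 160 named genes passed it. The HNF4A motif stood in 1.31% of the promoters of all genes called higher in females. Leaving out each mouse in turn gave 1243 to 1448 genes higher in males (lowest without female replicate 1), 1473 to 1720 higher in females, 155 to 169 and 205 to 232 past 2-fold, 3 to 7 in the test against Pxr-/- Cont and 6 to 8 in the test against Pxr+/+ ATB mice. Replicate numbers do not pair mice (correlation of deviations -0.147 to 0.226 between same-numbered mice), and a replicate block gave 1473 and 1695 genes, 157 and 214 of them past 2-fold. A fit of only the Pxr+/+ Cont arrays gave 1252 genes higher in males and 1544 higher in females, 153 and 212 of them past 2-fold. Over 160 named genes and 11 settings, 1658 of 1725 values kept their call and direction, 44 lost and 23 gained the call, and 0 reversed. Precision is limited by 6 mice per sex, and probes shared by paralogs limit which member of the Sult2a, Cyp2c, Cyp2b and Cyp3a families was measured.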
